A study of Mus musculus with 8 samples.

Results

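The core circadian clock genes described here are 10 genes chosen by their symbols: Per1, Per2, Per3, Cry1, Cry2, Ciart, Nr1d1, Nr1d2, Clock and Npas2. All 10 were among the 14569 genes of the deposited table, as 20 of its 33027 transcripts, and all 10 were among the 13776 genes that passed the filter on low values. They were measured by paired-end RNA sequencing of the left ventricle, the main pumping chamber of the heart, in 8 libraries from mice aged 6 months on a C57 background. Of these, 2 came from wild-type (WT) mice, 3 from mdx mice and 3 from mdx sln+/- mice. The mdx mouse carries a germline mutation of Dmd and lacks dystrophin, the protein that ties the muscle cytoskeleton to the cell membrane, and it is a model of Duchenne muscular dystrophy and its heart disease. The mdx sln+/- mice lack dystrophin too, and in addition have 1 intact copy of Sln, which encodes sarcolipin, an inhibitor of the calcium pump SERCA. The series asks which molecular pathways go with heart disease in these genotypes. Whether each library stands for its own animal is not in the labels, and p-values therefore cover only the spread among the 8 libraries, which may be technical. The labels give neither the sex of the mice nor the hour at which the hearts were taken.

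The circadian clock is a loop of transcription that runs with a daily period in nearly every cell, heart muscle cells included. CLOCK or its relative NPAS2 pairs with BMAL1 and binds E-boxes, short DNA motifs in the promoters of the Per, Cry, Ciart and Nr1d genes, and the PER, CRY and CIART proteins then block that activity. The Nr1d genes encode REV-ERB-alpha and REV-ERB-beta, nuclear receptors that repress the activator genes, and D-boxes, bound by DBP, TEF, HLF and NFIL3, drive further genes of the loop. Levels of these RNAs rise and fall over the day, so without the hour of collection a difference between genotypes and a difference in collection time cannot be told apart in the values below. Arntl, which encodes BMAL1, had no row under that symbol in the deposited table and could not be analysed here. In RNA from whole tissue, fewer cells of a type and less RNA per cell cannot be told apart either.

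Promoter sequence was at hand for 9 of the 10 genes, in 12 windows that run from 250 bases before to 50 bases after an annotated start (RefSeq, GRCm38.p6). The E-box CACGTG, which reads alike on both strands, was in the windows of Per1, Cry1 and Ciart, and 7.15% of all 32851 promoter windows of this length held it. The variant E-box CACGTT, searched on both strands, was in those of Cry1, Cry2 and Nr1d1, against 4.68% of all windows. A D-box, searched as TTATGTAA and TTACGTAA on both strands, was in the window of Per3, against 1.06% of all windows. The core bound by REV-ERB and ROR receptors, searched as TAGGTCA and TGGGTCA on both strands, was in none of the 12, against 6.45% of all windows, which says only that these letters are not in these windows. A match describes the sequence and is not shown to be a binding site. The 4 stretches below, each from base -250 to base -26 of the start, are those with a full E-box or a D-box, and they are shown because Per1, Per3 and Ciart fell in both mdx groups and Cry1 did not. Capitals mark the E-box in the first 3 and the D-box in the last. Per1 is chr11:69098699-69098923 on the plus strand, and its E-box runs from -166 to -161. Cry1 is chr10:85185080-85185304 on the minus strand, with an E-box from -60 to -55 and the variant E-box, left in lower case, starting at -79. Ciart is chr3:95882254-95882478 on the minus strand, with E-boxes that start at -116, -58 and -44. Per3 is chr4:151044691-151044915 on the minus strand, with D-boxes that start at -205 and -158.
Per1: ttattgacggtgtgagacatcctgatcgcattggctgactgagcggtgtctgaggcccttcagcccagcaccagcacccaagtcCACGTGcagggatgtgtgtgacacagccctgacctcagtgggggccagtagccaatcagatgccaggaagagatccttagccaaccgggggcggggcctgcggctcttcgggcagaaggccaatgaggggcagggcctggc
Cry1: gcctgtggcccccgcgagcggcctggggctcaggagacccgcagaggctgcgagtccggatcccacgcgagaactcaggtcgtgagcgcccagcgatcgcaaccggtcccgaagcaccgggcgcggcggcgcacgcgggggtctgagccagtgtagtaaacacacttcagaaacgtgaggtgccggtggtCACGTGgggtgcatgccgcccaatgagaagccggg
Ciart: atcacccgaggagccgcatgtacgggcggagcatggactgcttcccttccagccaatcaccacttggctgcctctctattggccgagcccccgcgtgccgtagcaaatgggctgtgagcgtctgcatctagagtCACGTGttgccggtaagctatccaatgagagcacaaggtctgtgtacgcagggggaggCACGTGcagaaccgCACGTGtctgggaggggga
Per3: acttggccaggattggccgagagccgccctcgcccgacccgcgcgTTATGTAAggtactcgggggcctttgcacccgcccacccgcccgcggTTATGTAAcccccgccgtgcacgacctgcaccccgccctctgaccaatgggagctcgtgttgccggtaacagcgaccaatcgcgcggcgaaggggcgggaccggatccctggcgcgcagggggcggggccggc

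Dmd, the mutated gene, checks the labels of WT against the 2 mdx groups. It cannot check which of those libraries are mdx and which mdx sln+/-, since both groups lack dystrophin. WT 1 and 2 had log2 levels of 6.60 and 6.98, the mdx libraries of 4.22 to 4.32 and those of mdx sln+/- of 4.09 to 4.25, so Dmd fell in both mdx groups, by 2.51 ± 0.12 and 2.65 ± 0.12 (SE; limma, adjusted p = 0.000227 and 0.000177). All levels are log2(abundance + 1), a scale on which changes of low genes are understated, and levels of different genes are not compared, since no source used here tells if length was divided out. Read depth cannot be read from these values, which are no counts; summed linear abundance ranged from 780262 to 924253 over the libraries. All 8 ventricular myocyte markers were listed, with a summed log2 level of 15.46 to 15.67 and 0 of 8 called between groups in limma. Of 5 atrial markers 3 (Myl7, Myl4 and Bmp10) were not listed. The other 2, Nppa and Gja5, summed to 8.54 in WT 1, 7.81 in WT 2 and 8.91 to 9.45 in the mdx and mdx sln+/- libraries. Nppa alone was at 8.52 in WT 1 and 7.76 in WT 2, so the sum follows Nppa. Both were called higher in mdx and neither was called in mdx sln+/-. The 6 macrophage markers summed to 7.20 and 7.26 in WT, 7.63 to 7.84 in mdx and 7.71 to 7.84 in mdx sln+/-, and 2 and 3 of the 6 were called higher than in WT. For the smooth muscle and pericyte list, WT libraries summed to 8.58 and 8.84, mdx libraries to 9.01 to 9.35 and mdx sln+/- libraries to 9.01 to 9.29. In either comparison with WT, 0 of 5 were called, and members went different ways. Group means (WT, mdx, mdx sln+/-) were 8.20, 8.85 and 8.84 for Rgs5 and 5.70, 5.98 and 5.89 for Pdgfrb. They were 4.88, 4.61 and 3.91 for Tagln, 1.44, 1.17 and 0.61 for Cnn1, and 5.10, 5.13 and 4.63 for Myh11. The median difference from WT over this list was 0.03 for mdx and -0.47 for mdx sln+/-. Of 6 endothelial markers Emcn and Tek, and of 7 fibroblast markers Col1a1, were called higher in both comparisons. The summed levels of these lists overlapped between WT and the other groups. Not every marker rose: Pecam1 was at 7.41 and 7.42 in WT and 7.07 to 7.27 in the others. Mean levels of Dcn and Fabp4 were 8.69 and 8.83 in WT, 8.60 and 8.81 in mdx and 8.55 and 8.82 in mdx sln+/-. The median difference was 0.35 in mdx and 0.42 in mdx sln+/- for the endothelial list, and 0.14 and 0.21 for the fibroblast list. Of all genes tested, 8.15% were called higher in mdx and 9.41% in mdx sln+/-. The part of these cell types in the clock gene values was not tested. The Y-linked gene Eif2s3y was lowest in WT 2 (0.92) and mdx sln+/- 3 (1.31). It was at 6.11 in WT 1, 5.91 in mdx 1 and 5.79 in mdx 3. Between these lay mdx 2 (4.01), mdx sln+/- 1 (3.29) and mdx sln+/- 2 (4.14). A contrast removed before deposit (see processing) ties mdx 2 and mdx sln+/- 2 to the other libraries without dystrophin. Their Y-linked level before that step is therefore not known. Source names come in 2 styles, and WT 1, WT 2, mdx 3 and mdx sln+/- 3 share the plain one. Counts below are therefore also given without WT 2 and mdx sln+/- 3, and for the 4 plainly named libraries.

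Most of the clock genes were lower in the ventricles that lack dystrophin. In mdx against WT, 6 of the 10 fell (Per1, Per2, Per3, Cry2, Nr1d2 and Ciart), 1 rose (Npas2) and 3 were not called (Cry1, Nr1d1 and Clock). The same 6 fell and the same 1 rose in mdx sln+/- against WT, a comparison that shares both WT libraries with the first. As folds of abundance + 1, the falls ran from 1.80 (Per1) to 4.39 (Ciart) in mdx and from 1.37 (Per1) to 4.92 (Ciart) in mdx sln+/-. The rise of Npas2 was 1.64-fold and 1.56-fold on that scale. Folds of abundance itself are larger, most so for low genes. Abundance of Ciart was 17.03 and 10.01 in WT and 1.61 to 3.32 in mdx, and that of Npas2 1.16 and 1.45 in WT and 2.36 to 2.98 in mdx. A call is an adjusted p under 0.05 in limma, with Benjamini-Hochberg adjustment over all 13776 genes tested.

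Over all genes tested, 15.1% were called in mdx against WT (8.15% higher and 6.95% lower) and 15.9% in mdx sln+/- against WT (9.41% higher and 6.5% lower). The median log2 difference of the 10 clock genes was -0.93 and -0.72 in these comparisons, against 0.02 and 0.05 over all genes. In 8 of 10 clock genes the libraries of the groups did not overlap in mdx against WT, where 51.4% of all genes did not, and the count was again 8 of 10 in mdx sln+/- against WT, where 59.8% did not. Overlap here, and the SDs and bands of libraries below, are read from the deposited values. A contrast that ties mdx 2 and mdx sln+/- 2 to the other libraries without dystrophin had been removed from these. Spread within the mdx groups may therefore look too small, and only the limma fit has a term for this. With both mdx groups set against WT in 1 contrast, 7 of 10 were called, against 19.7% of all genes. Median-ratio scaling left 7 clock genes called in each comparison, while over all genes the larger side turned, to 1010 higher and 1094 lower in mdx and 931 higher and 1136 lower in mdx sln+/-. Without WT 2 and mdx sln+/- 3, the clock genes called dropped to 4 in mdx (Per1, Cry2, Nr1d2 and Ciart), against 0.925% of all genes, and to 0 in mdx sln+/-, against 0.286%. The differences in mdx sln+/- kept their direction there, at -0.59 for Per1, -1.14 for Per2, -0.68 for Per3, -0.90 for Cry2, -0.75 for Nr1d2, -2.60 for Ciart and 0.61 for Npas2 (limma, adjusted p from 0.0553 to 0.203), in a fit with 2 residual degrees of freedom in place of 4. With 1 WT library left in that fit, and 1 library left in each mdx group of the plainly named ones, the lone library is assumed to vary like the other groups. Among the plainly named libraries, they were 3 in mdx (Cry2, Nr1d2 and Ciart), against 0.911% of all genes, and 4 in mdx sln+/- (the same 3 and Per2), against 2.49%. With name style as a term in the model, 6 were called in mdx (Per2 was lost) and 4 in mdx sln+/- (Per1, Per2 and Per3 were lost), against 4.06% and 5.16% of all genes.

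**Figure D1:**
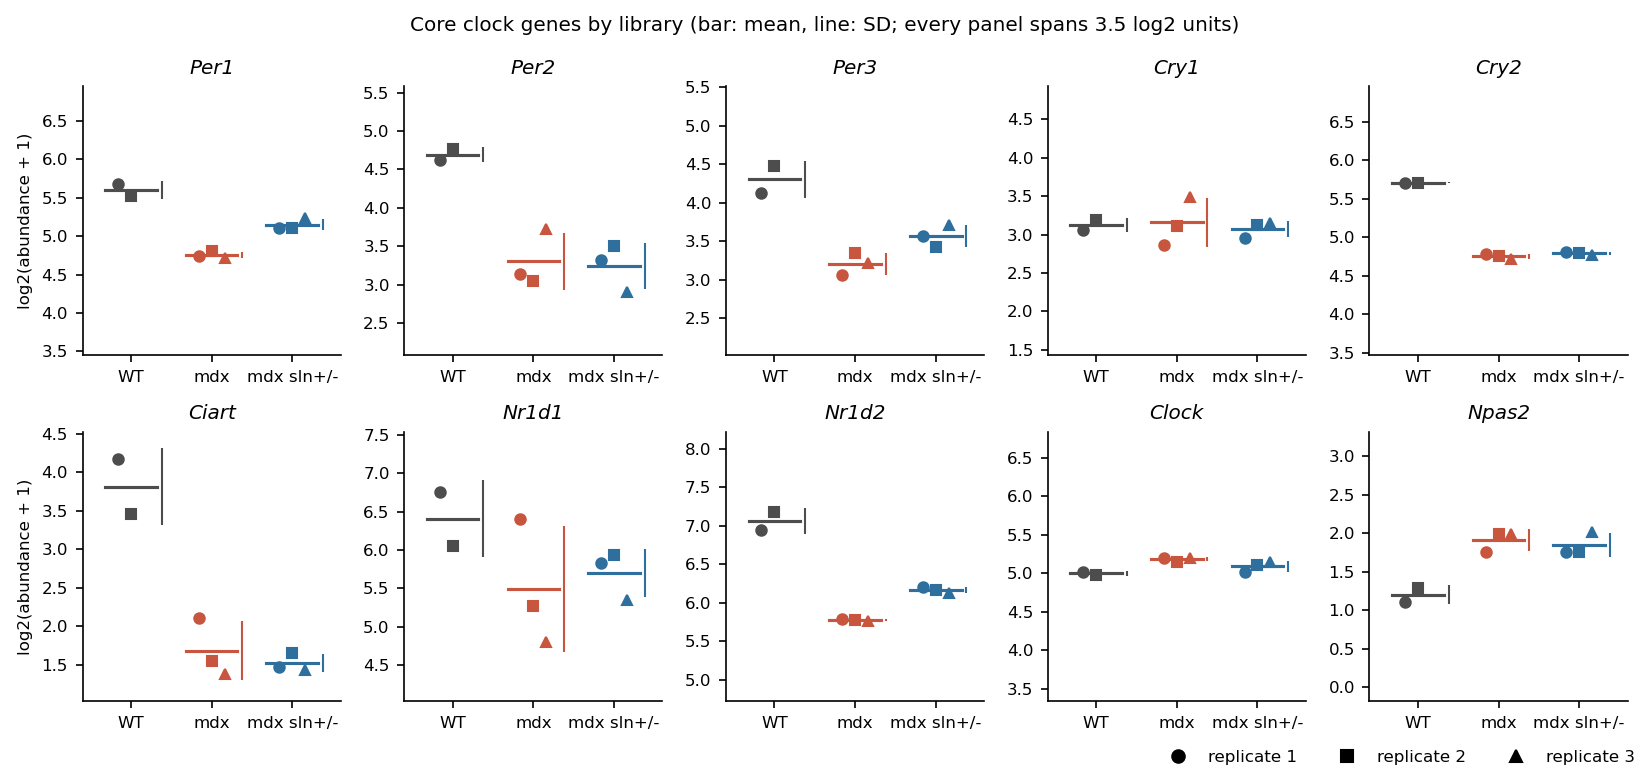
Level of each clock gene as log2(abundance + 1) by library in WT, mdx and mdx sln+/-; points are libraries, horizontal bars group means and vertical lines SD (n = 2, 3 and 3), and each panel spans 3.5 log2 units. Cry2 sits at 5.70 and 5.71 in WT and between 4.72 and 4.81 in the 6 other libraries, while Cry1 overlaps in all 3 groups.

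The period genes encode the PER proteins, which gather with CRY proteins and carry the repression of CLOCK and BMAL1. Per1 (chromosome 11, 69095217 to 69109960, plus strand; GRCm38, GENCODE M21, as for the positions below) is the period gene that also answers quickly to hormones and other signals. WT 1 and 2 had levels of 5.68 and 5.52. The mdx libraries, numbered 1 to 3, followed with 4.74, 4.80 and 4.72, and those of mdx sln+/-, in the same order, with 5.11, 5.11 and 5.23. The 3 groups form separate bands, with WT highest and mdx lowest. Per1 fell by 0.85 ± 0.08 in mdx (SE; limma, adjusted p = 0.00314) and by 0.45 ± 0.08 in mdx sln+/- (adjusted p = 0.0165). The second call was lost without WT 1 (adjusted p = 0.0544) and without mdx sln+/- 1 (0.0994), and over 23 alternatives its adjusted p ran from 0.00369 to 0.259.

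Per2 (chromosome 1, 91415982 to 91459324, minus strand) is the period gene whose protein is held to be limiting for the repressor complex. Its level was 4.62 and 4.76 in WT, 3.14, 3.05 and 3.73 in mdx and 3.32, 3.50 and 2.91 in mdx sln+/-. Both WT libraries lay above all 6 others, and the 2 mdx groups overlapped, with the highest of the 6 in mdx 3 and the lowest in mdx sln+/- 3. Per2 fell by 1.39 ± 0.25 in mdx (SE; limma, adjusted p = 0.0161) and by 1.45 ± 0.25 in mdx sln+/- (adjusted p = 0.0133). The call in mdx was lost without WT 2 (adjusted p = 0.0835) or mdx 1 (0.0622), and that in mdx sln+/- without WT 2 (0.0751) or mdx sln+/- 1 (0.0583). Over 23 alternatives these adjusted p ran from 0.0048 to 0.0985 and from 0.0039 to 0.164.

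Per3 (chromosome 4, 151003652 to 151044665, minus strand) is the period gene the loop can run without, and its promoter window holds the pair of D-boxes shown above. Its level was 4.13 and 4.47 in WT, 3.06, 3.34 and 3.21 in mdx and 3.56, 3.42 and 3.71 in mdx sln+/-. The groups did not overlap, and their order was that of Per1. Per3 fell by 1.10 ± 0.15 in mdx (SE; limma, adjusted p = 0.00746) and by 0.74 ± 0.15 in mdx sln+/- (adjusted p = 0.0209). Without WT 2 the second difference was -0.57 (adjusted p = 0.103), without mdx sln+/- 1 it was -0.74 (0.0929), and over 23 alternatives the adjusted p ran from 0.00636 to 0.191. Per3 lies inside Camta1 on the same strand, and reads of shared sequence could be counted for either gene; Camta1 fell by 0.45 ± 0.11 in mdx (limma, adjusted p = 0.0353).

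The cryptochromes bind CLOCK and BMAL1 directly and are the stronger repressors of the loop, and of the 2 cryptochrome genes Cry2 was called here and Cry1 was not. Cry2 (chromosome 2, 92403646 to 92434043, minus strand) was at 5.70 and 5.71 in WT, 4.78, 4.75 and 4.72 in mdx and 4.81, 4.79 and 4.77 in mdx sln+/-. Libraries of a group lay within 0.06 log2 units of each other, and WT stood apart from all others. The gene D930015M05Rik overlaps Cry2 by 23417 bases on the opposite strand, and without known strand use its reads could be counted for Cry2. Cry2 fell by 0.95 ± 0.07 in mdx (SE; limma, adjusted p = 0.000777) and by 0.92 ± 0.07 in mdx sln+/- (adjusted p = 0.000933). Cry1 (chromosome 10, 85131700 to 85185064, minus strand) was at 3.06 and 3.19 in WT, 2.87, 3.11 and 3.49 in mdx and 2.95, 3.12 and 3.15 in mdx sln+/-. All 3 groups overlapped, with both the lowest and the highest library in mdx. Its difference was 0.03 ± 0.19 in mdx (SE; 95% interval -0.40 to 0.47; limma, adjusted p = 0.925) and -0.05 ± 0.19 in mdx sln+/- (-0.48 to 0.38; 0.873), so a change of up to about the size of that of Per1 in mdx sln+/- is within the interval. Whether the differences of Cry1 and Cry2 differ from each other was not tested.

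Ciart (chromosome 3, 95878503 to 95882251, minus strand), also called Chrono, encodes a repressor of CLOCK and BMAL1 outside the PER and CRY families, and had the largest fold differences of the 10 genes. Its level was 4.17 and 3.46 in WT, 2.11, 1.55 and 1.38 in mdx and 1.47, 1.65 and 1.43 in mdx sln+/-. WT lay more than 1 log2 unit above every other library, and the spread within WT was wide. Ciart fell by 2.13 ± 0.28 in mdx (SE; limma, adjusted p = 0.00666) and by 2.30 ± 0.28 in mdx sln+/- (adjusted p = 0.00577). The r1 and r2 columns of a library, whose meaning is not given, differed by up to 0.41 for this gene. The antisense gene C920021L13Rik covers the whole of Ciart, and whether counting used strand is not given, so reads of the 2 cannot be told apart.

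The REV-ERB receptors close the second loop of the clock and also repress genes of metabolism and inflammation. Nr1d2, for REV-ERB-beta (chromosome 14, 18204054 to 18239127, minus strand), was at 6.94 and 7.18 in WT, 5.79, 5.77 and 5.76 in mdx and 6.20, 6.17 and 6.13 in mdx sln+/-. The groups formed 3 bands with WT highest and mdx lowest. Libraries within either mdx group lay close together, a spread that the contrast removed before deposit can make too small. Nr1d2 fell by 1.29 ± 0.08 in mdx (SE; limma, adjusted p = 0.000652) and by 0.90 ± 0.08 in mdx sln+/- (adjusted p = 0.00258). Nr1d1, for REV-ERB-alpha (chromosome 11, 98767932 to 98775333, minus strand), was at 6.76 and 6.05 in WT, 6.40, 5.27 and 4.81 in mdx and 5.83, 5.93 and 5.35 in mdx sln+/-. It had the largest SD of the 10 genes in both mdx groups, and mdx 1 lay between the 2 WT libraries. Its difference was -0.91 ± 0.48 in mdx (SE; 95% interval -2.03 to 0.20; limma, adjusted p = 0.228) and -0.70 ± 0.48 in mdx sln+/- (-1.82 to 0.41; 0.332). Without mdx 1 the first became -1.56 and was called (adjusted p = 0.0327), and over 23 alternatives the adjusted p ran from 0.0327 to 0.564. Nr1d1 and Thra overlap tail to tail by 1075 bases on opposite strands, so reads there can belong to either; Thra differed by 0.38 ± 0.13 in mdx (limma, adjusted p = 0.088).

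Of the activator genes, Npas2 rose and Clock was not called. Npas2 (chromosome 1, 39193731 to 39363236, plus strand), which can stand in for CLOCK beside BMAL1, was at 1.11 and 1.29 in WT, 1.75, 1.99 and 1.99 in mdx and 1.75, 1.76 and 2.02 in mdx sln+/-. Every mdx and mdx sln+/- library lay above both WT libraries. Npas2 rose by 0.71 ± 0.15 in mdx (SE; limma, adjusted p = 0.0228) and by 0.64 ± 0.15 in mdx sln+/- (adjusted p = 0.0305). These are low levels, and the call in mdx was lost without WT 1 (adjusted p = 0.0821), WT 2 (0.067), mdx 3 (0.064) or mdx sln+/- 1 (0.0514), with a range of 0.00618 to 0.169 over 22 alternatives. That in mdx sln+/- was lost without WT 1 (adjusted p = 0.1), WT 2 (0.0767), mdx sln+/- 1 (0.0979) or mdx sln+/- 3 (0.122), with a range of 0.00877 to 0.203. Clock (chromosome 5, 76209868 to 76304792, minus strand), the first activator, was at 5.02 and 4.97 in WT, 5.19, 5.15 and 5.20 in mdx and 5.01, 5.11 and 5.15 in mdx sln+/-. The mdx libraries lay just above WT, and those of mdx sln+/- overlapped with it. Its difference was 0.19 ± 0.07 in mdx (SE; 95% interval 0.01 to 0.36; limma, adjusted p = 0.133) and 0.10 ± 0.07 in mdx sln+/- (-0.08 to 0.27; 0.393).

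**Figure D2:**
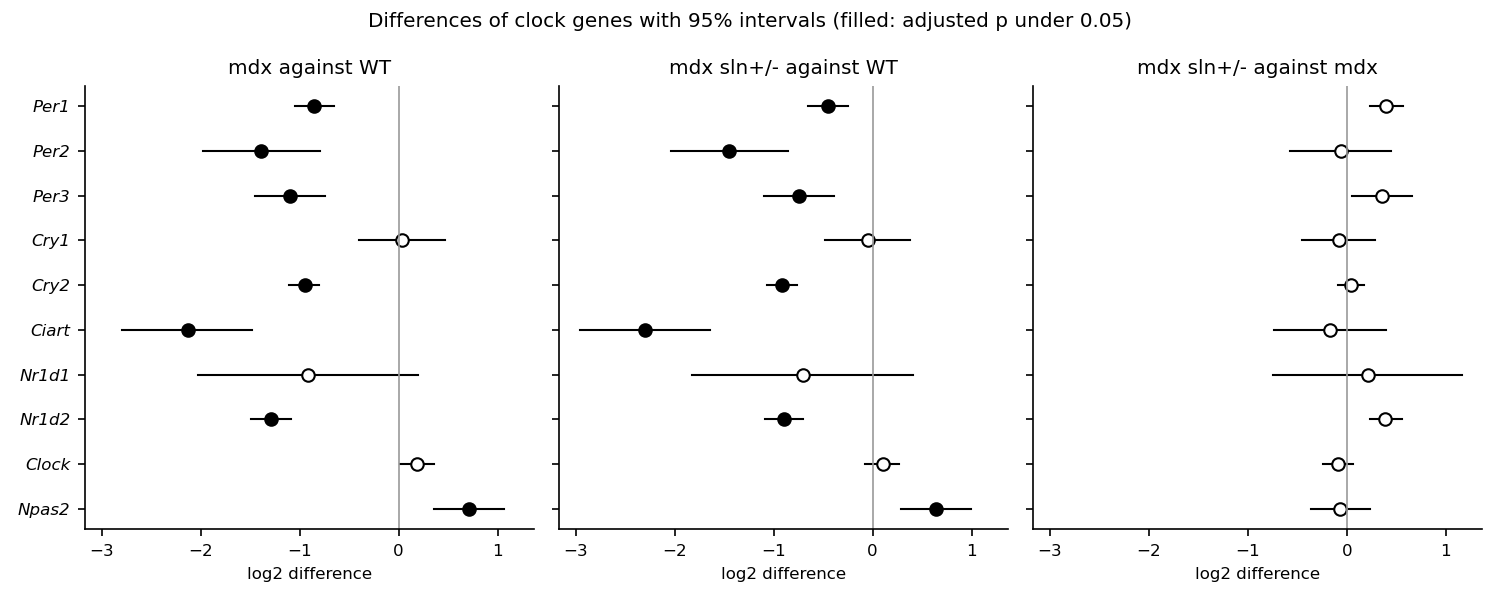
Log2 difference of each clock gene in 3 comparisons, with 95% intervals from limma; filled points passed an adjusted p of 0.05. In the first 2 panels 7 of 10 points are filled, 6 to the left of 0 and Npas2 to the right. In the third panel none is filled, and only the intervals of Per1, Per3 and Nr1d2 lie wholly to the right of 0.

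The loss of 1 Sln allele in the mdx ventricle gave no clock gene past the threshold: 0 of 10 were called in mdx sln+/- against mdx in limma, as were 0% of all 13776 genes, whose smallest adjusted p was 0.477. At an unadjusted p under 0.05 there were 1187 genes, or 8.62%, and 3 of the 10 clock genes (Per1, Nr1d2 and Per3). Per1 was at 4.72 to 4.80 in mdx and 5.11 to 5.23 in mdx sln+/-, a difference of 0.40 ± 0.07 (SE; 95% interval 0.23 to 0.57; adjusted p = 0.578 in limma). Nr1d2 was at 5.76 to 5.79 and 6.13 to 6.20, a difference of 0.39 ± 0.07 (0.23 to 0.56; adjusted p = 0.578), and Per3 at 3.06 to 3.34 and 3.42 to 3.71, a difference of 0.36 ± 0.13 (0.05 to 0.66; adjusted p = 0.578). In these 3 genes the libraries of the 2 groups did not overlap, as in 24.8% of all genes, and the mdx sln+/- level lay between mdx and WT. The other 7 overlapped, with differences from -0.17 (Ciart) to 0.21 (Nr1d1). For Cry2 the interval ran from -0.09 to 0.17, so a difference as large as that of Nr1d2 lies outside it, whereas for Nr1d1 it ran from -0.74 to 1.16 and for Per2 from -0.57 to 0.45. Over 23 alternatives the differences of Per1, Nr1d2 and Per3 stayed at 0.27 or above, and their smallest adjusted p was 0.181.

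Of the 20 clock gene transcripts, 18 passed the filter, and 11 of them were called in mdx against WT (9 lower and 2 higher), against 8.29% of all 29021 transcripts tested. In mdx sln+/- against WT 8 were called (6 lower and 2 higher), against 10.1%. Without WT 2 and mdx sln+/- 3, 1 was called in mdx (Nr1d2-201) and 0 in mdx sln+/-, against 0.208% and 0.152% of all transcripts. Among the plainly named libraries they were 0 and 1 (Per2-201), against 0.0973% and 0.368%, and with name style as a term 5 and 4, against 1.38% and 2.3%. Transcripts of a gene share exons, so their values are estimates that can trade reads with each other. The 2 higher ones were Npas2-201 and Clock-205. Clock-205 and Clock-201 both have 23 exons, and Clock-205 is the longer, with 9744 bases against 7478. Clock-205 was at 3.45 and 3.56 in WT, 3.89, 4.06 and 4.04 in mdx and 4.05, 4.01 and 4.17 in mdx sln+/-, so both mdx groups lay above WT. It rose by 0.49 ± 0.11 in mdx (SE; limma, adjusted p = 0.0386) and by 0.57 ± 0.11 in mdx sln+/- (adjusted p = 0.022). Clock-201 was at 4.49 and 4.37 in WT, 4.51, 4.31 and 4.40 in mdx and 4.05, 4.28 and 4.22 in mdx sln+/-, with differences of -0.02 ± 0.12 (limma, adjusted p = 0.934) and -0.25 ± 0.12 (0.211). Clock-205 thus made up 31.6% and 35.4% of the Clock abundance in WT, 38.7%, 45.4% and 43.5% in mdx and 50%, 45.1% and 49% in mdx sln+/-, a shift in share that was not tested. The call of Clock-205 in mdx is a weak one: in limma it was lost without WT 1, WT 2, mdx 2, mdx 3 or any 1 mdx sln+/- library, with adjusted p of 0.0631 to 0.106, and over 19 alternatives the adjusted p ran from 0.00912 to 0.315. In mdx sln+/- the call was lost without WT 1, WT 2, mdx sln+/- 1 or mdx sln+/- 3, with adjusted p of 0.0662 to 0.117 and a range of 0.00465 to 0.21.

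**Figure D3:**
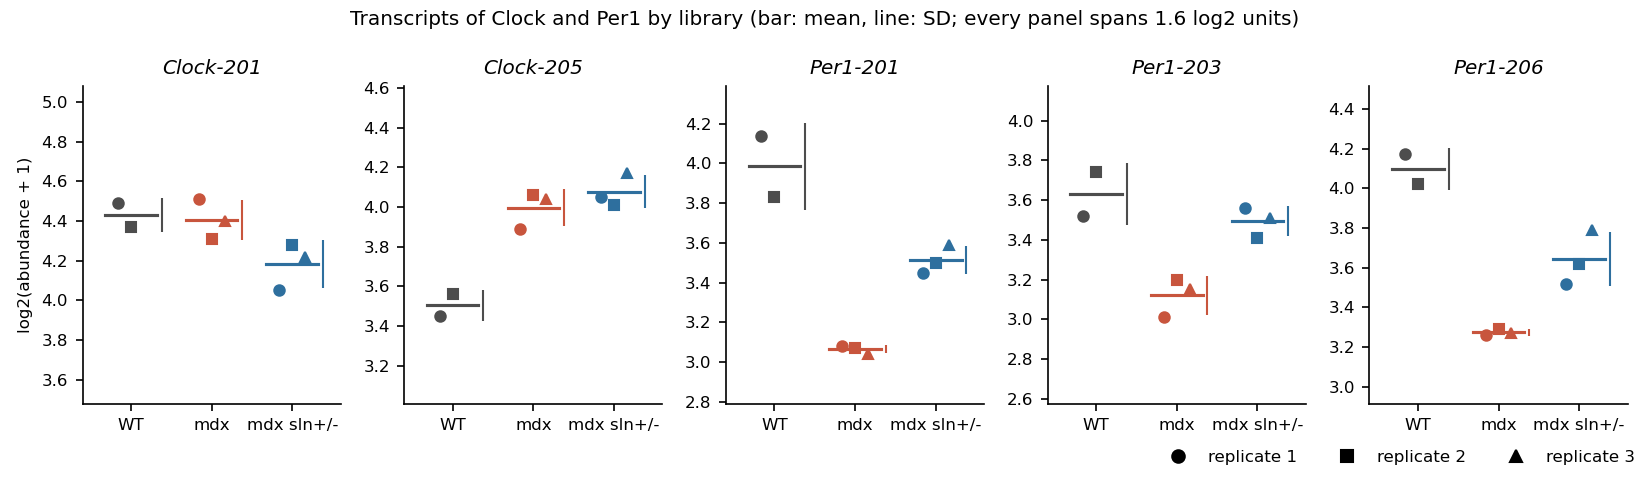
Level of transcripts of Clock and Per1 as log2(abundance + 1) by library; points are libraries, horizontal bars group means and vertical lines SD, and each panel spans 1.6 log2 units. Clock-205 lies higher in both mdx groups than in WT and Clock-201 does not, and Per1-201, Per1-203 and Per1-206 are lowest in mdx.

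Of 5 transcripts of Per1 tested, 3 fell in mdx. Per1-201, at 4.14 and 3.83 in WT and 3.04 to 3.08 in mdx, fell by 0.92 ± 0.13 (SE; limma, adjusted p = 0.0105). Per1-206, at 4.17 and 4.02 in WT and 3.26 to 3.29 in mdx, fell by 0.82 ± 0.12 (adjusted p = 0.0123). Per1-203 fell by 0.52 ± 0.13 (adjusted p = 0.0467), a call that was lost without any 1 of the 8 libraries (adjusted p from 0.0535 to 0.179). Per1-203 and Per1-206 start downstream of the stretch shown above. In mdx sln+/- none of the 3 was called, with differences of -0.47, -0.45 and -0.14 (limma, adjusted p = 0.0538, 0.0534 and 0.511). Both tested transcripts of Nr1d2 fell in both groups: Nr1d2-201, which is protein coding, by 1.29 ± 0.10 and 0.88 ± 0.10, and Nr1d2-202, which keeps an intron, by 0.98 ± 0.19 and 1.00 ± 0.19 (limma, adjusted p = 0.0246 and 0.0207). The calls of Nr1d2-202 were lost in mdx without WT 1 (adjusted p = 0.0749), WT 2 (0.0853), mdx 3 (0.0609) or mdx sln+/- 1 (0.0615), and in mdx sln+/- without WT 1 (0.0647), WT 2 (0.0731), mdx sln+/- 1 (0.0998) or mdx sln+/- 3 (0.095). The full-length Per3-201 fell by 1.28 ± 0.20 in mdx (limma, adjusted p = 0.0146) and by 0.88 ± 0.20 in mdx sln+/- (adjusted p = 0.0348), calls that rest on several libraries. The first was lost without WT 2 (adjusted p = 0.0783) or mdx 1 (0.0511), and the second without WT 1 (0.055), WT 2 (0.156), mdx 3 (0.0503), mdx sln+/- 1 (0.148) or mdx sln+/- 3 (0.0573). Per3-204, a transcript without a coding sequence that covers the end of the gene, differed by -0.53 and -0.33 and was not called.

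Other genes of the pathway were taken from fixed lists and described by their counts; each list is set against the share of all genes given above, and 0 of their genes were called in mdx sln+/- against mdx. Among the clock output factors and bHLH repressors, 3 of 6 fell and 1 rose in mdx, and 2 fell and 1 rose in mdx sln+/-, with a median difference of -0.39 and -0.49. Without WT 2 and mdx sln+/- 3, Dbp alone was called in mdx and 0 of 6 in mdx sln+/-, where Dbp differed by -1.90 (limma, adjusted p = 0.0685); among the plainly named libraries 2 and 3 were called. Dbp, a D-box activator and a direct output of CLOCK and BMAL1, was at 7.09 and 6.70 in WT and 4.61 to 5.27 in the 6 others. It fell by 1.94 ± 0.20 in mdx (SE; limma, adjusted p = 0.00314) and by 1.70 ± 0.20 in mdx sln+/- (adjusted p = 0.00497). Tef, a second D-box activator, fell by 1.08 ± 0.14 and 0.90 ± 0.14 (adjusted p = 0.00624 and 0.00924), and the second call was lost without WT 2 (0.0528). Nfil3, the D-box repressor, named after its values were seen, rose by 1.01 ± 0.19 and 1.20 ± 0.19 (adjusted p = 0.0168 and 0.0098). ROR receptors activate genes that REV-ERB represses. Rora fell by 0.64 ± 0.13 in mdx (limma, adjusted p = 0.0214), a call lost without WT 2 (0.0984), without mdx 1 (0.0766), without WT 2 and mdx sln+/- 3 together (0.16) and among the plainly named libraries (0.276). In mdx sln+/- it differed by -0.40 ± 0.13 (adjusted p = 0.0775), and was called without WT 1 (0.046). Rorb differed by 0.39 ± 0.18 and 0.26 ± 0.18 (limma, adjusted p = 0.178 and 0.336) and was not called in either.

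Of 17 kinases, ligases and cofactors of PER and CRY tested, 5 were called in mdx, or 29.4%, against 15.1% of all genes. In mdx sln+/- 4 were called, or 23.5%, against 15.9%. The other 12 and 13 were not called, and the medians of the list were -0.07 and -0.08. Without WT 2 and mdx sln+/- 3, Usp2 alone was called in mdx and 0 of 17 in mdx sln+/-, and among the plainly named libraries 1 and 2 were called. Of the genes of this list called with all libraries, those with the smallest p were Usp2, a deubiquitinase that acts on clock proteins, and Cipc, an inhibitor of CLOCK. Usp2 was at 7.43 and 7.34 in WT and 6.23 to 6.46 in the 6 others, and fell by 1.03 ± 0.10 and 0.99 ± 0.10 (SE; limma, adjusted p = 0.00238 and 0.00265). Cipc was at 6.06 and 6.21 in WT and 5.18 to 5.45 in the others, and fell by 0.73 ± 0.08 and 0.89 ± 0.08 (adjusted p = 0.00394 and 0.00195). Cipc was at -0.64 and -0.78 without WT 2 and mdx sln+/- 3 (limma, adjusted p = 0.0595 and 0.066) and Usp2 in mdx sln+/- at -1.06 (0.0685). Among 7 genes known as clock-controlled, 3 fell in mdx and 2 in mdx sln+/-, and none rose. Of all genes, 6.95% and 6.5% were called lower. Without WT 2 and mdx sln+/- 3, 0 of the 7 were called in either (Noct at -0.92 and -0.77; limma, adjusted p = 0.0646 and 0.117), and among the plainly named libraries 0 and 3 were. Noct, an enzyme with a strong daily rhythm, fell by 0.93 ± 0.10 and 0.81 ± 0.10 (limma, adjusted p = 0.00429 and 0.0064). Wee1, a kinase that holds back mitosis, fell by 0.91 ± 0.19 and 0.84 ± 0.19 (adjusted p = 0.0235 and 0.0288), and both calls were lost without WT 1 (0.0614 and 0.0678) or WT 2 (0.114 and 0.129), the second also without mdx sln+/- 1 (0.0866), mdx sln+/- 3 (0.102), mdx 2 (0.0524) or mdx sln+/- 2 (0.0522).

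**Figure D4:**
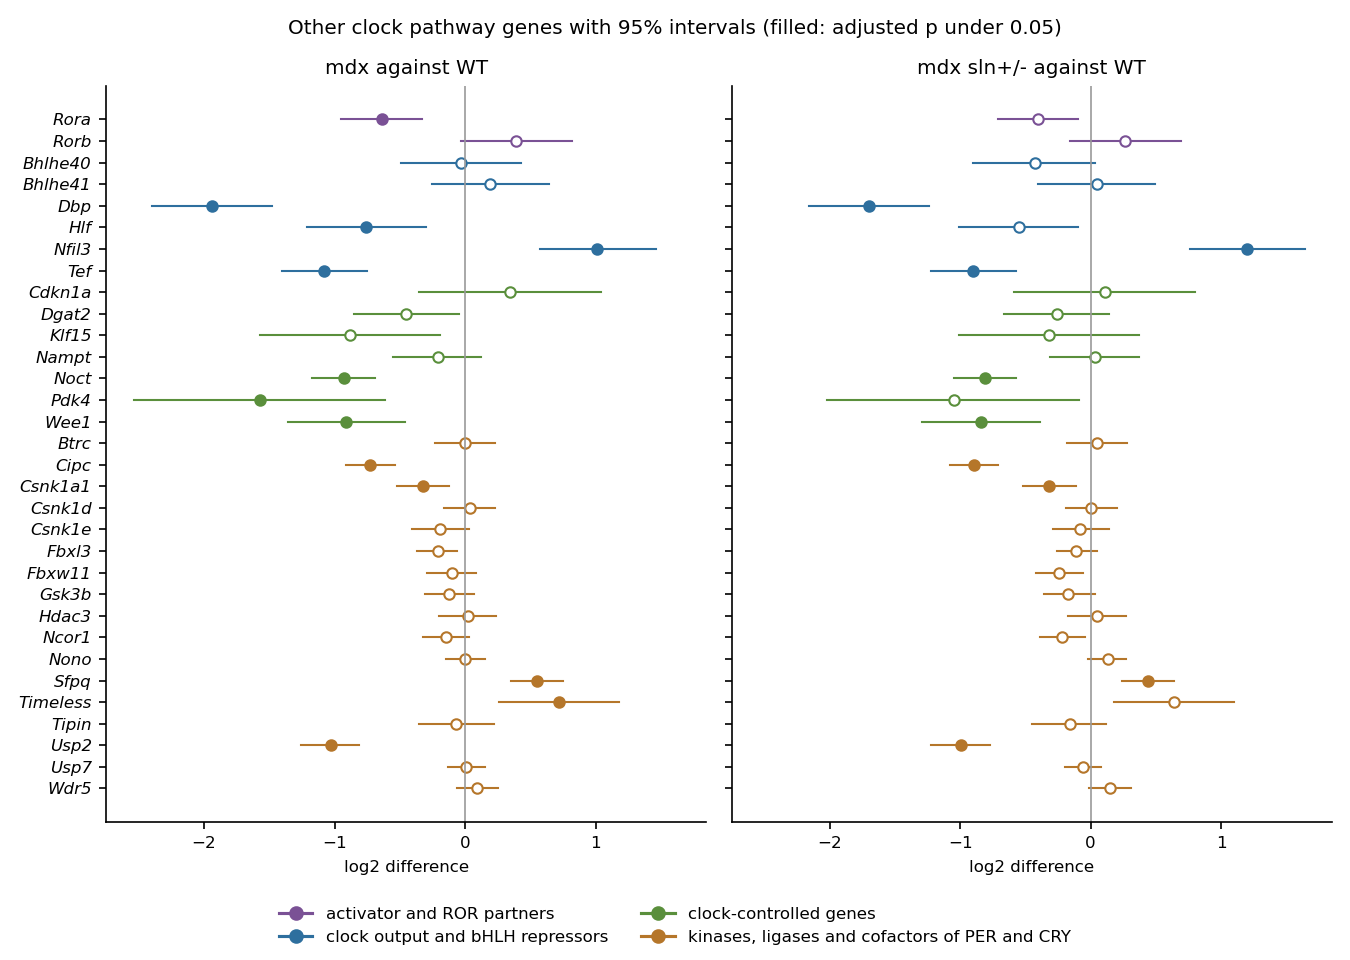
Log2 difference of other clock pathway genes in mdx and mdx sln+/- against WT, with 95% intervals from limma; filled points passed an adjusted p of 0.05 and colours mark the 4 lists. Dbp lies furthest to the left at -1.94 and -1.70, Nfil3 furthest to the right at 1.01 and 1.20, and most kinases, ligases and cofactors lie near 0.

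Signals that can act on clock genes from outside the loop were looked at in 2 lists. For the settings with libraries left out, the shares of all genes called are those given with the clock gene counts above. Of 8 glucocorticoid-responsive genes, 2 fell and 1 rose in mdx, and 2 fell and 2 rose in mdx sln+/-. That made 37.5% and 50% called, against 15.1% and 15.9% of all genes. None of the 8 was called in either without WT 2 and mdx sln+/- 3, and among the plainly named libraries 3 and 6 were. The metallothionein Mt1 was at 8.12 and 8.23 in WT and 6.38 to 7.10 in the 6 others, and fell by 1.54 ± 0.28 and 1.33 ± 0.28 (SE; limma, adjusted p = 0.0158 and 0.0229). Mt2 fell by 1.80 ± 0.41 and 1.75 ± 0.41 (adjusted p = 0.0295 and 0.0319). All 4 metallothionein calls were lost in limma without WT 1 (adjusted p from 0.0501 to 0.0731) or WT 2 (0.0818 to 0.144). Those in mdx were also lost without mdx 1 (0.0595 and 0.0906), that of Mt2 without mdx sln+/- 1 (0.0506), and those in mdx sln+/- without mdx sln+/- 1 (0.0602 and 0.0843) or mdx sln+/- 3 (0.0651 and 0.0647). Of 7 immediate early genes tested, which switch on within minutes of a stimulus, 2 rose in mdx and 4 in mdx sln+/-, and none fell. That made 28.6% and 57.1% called higher, against 8.15% and 9.41% of all genes. Atf3 alone was called in each without WT 2 and mdx sln+/- 3, and among the plainly named libraries 0 and 2 were. Atf3 was at 1.22 and 2.04 in WT and 3.21 to 3.44 in the others, and rose by 1.68 ± 0.23 and 1.71 ± 0.23 (limma, adjusted p = 0.00726 and 0.00666). Egr1 was at 2.50 and 1.34 in WT and 4.03 to 6.25 in the others, and rose by 3.18 ± 0.65 and 3.17 ± 0.65 (adjusted p = 0.0215 and 0.0213), calls that were lost without WT 2 (0.117 and 0.116), the second also without mdx sln+/- 1 (0.0916) or mdx sln+/- 3 (0.0567). The part of either list in the clock gene values was not tested.

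As a description, the genes with the pattern most like that of the clock genes with a negative difference in mdx were sought among 8262 other genes. The pattern was the mean standardised level of Per1, Per2, Per3, Cry2, Nr1d1, Nr1d2 and Ciart over the 8 libraries. These genes correlated with it at Pearson r from 0.70 (Nr1d1) to 0.98 (Cry2). Each of them is part of that mean, which raises its own r, so these values are no test of likeness. Of the members outside it, Npas2 was at -0.96, Clock at -0.81 and Cry1 at -0.12. The 8 libraries fall into WT and the rest, so any gene that parts them scores high. The 4 genes most alike were AU022252 (r = 0.996), Wipf3 (0.993), Pcsk7 (0.988) and Pts (0.987), and the 4 most opposite were Syne2 (-0.992), Cdk6 (-0.988), Egln3 (-0.987) and Slc39a10 (-0.987). Wipf3, for example, was at 5.95 and 5.99 in WT, 4.88, 4.85 and 4.89 in mdx and 5.06, 5.07 and 5.03 in mdx sln+/-. Egln3, an oxygen-sensing prolyl hydroxylase, was at 5.62 and 5.70 in WT, 6.69, 6.76 and 6.93 in mdx and 6.67, 6.74 and 6.72 in mdx sln+/-.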

How the data were processed

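Members, gene lists and tests were chosen with earlier results of these data known. Per the submitters' processing notes, the build was mm10, and the tools included STAR 2.6.1, Partek and limma. The deposited table holds log2 values of normalized abundance per transcript, in 16 columns (0 unmapped), which give every one of the 8 libraries as r1 and as r2, per the file headers; that these are log2(abundance + 1) was inferred from their range, 3.07e-05 to 16.2. How abundances were normalized, what r1 and r2 are and whether counting used strand are not given in the sources used here. The r1 and r2 values (Pearson r from 0.981 to 0.987 within a library) were averaged and turned to linear scale, the transcripts of a gene were added up, and log2(sum + 1) was taken. A gene was kept if 2 or more libraries reached a sum of 1, and was tested with limma 3.58.1 (R 4.3.3), with all libraries in 1 fit, a prior that follows mean level and Benjamini-Hochberg adjustment. In every transcript, mdx 2 and mdx sln+/- 2 together average the same as the other 4 libraries without dystrophin (largest difference 5.12e-05; SD for other choices 0.127 to 0.199), so a contrast had been removed before deposit. A term for it was fitted, which leaves 4 residual degrees of freedom (median prior 3.36). The code of the fit was run on simulated data with known changes and the contrast removed. That simulation held no differences by Y-linked level or name style, so it does not test the calls made here. Error after ± is SE unless SD is named. The text names every member, the 2 genes of each pathway list with the smallest p in mdx against WT, the 8 genes most or least like the clock pattern and Dmd; 1 gene of a pathway list is not reported here. Positions are from GENCODE M21 and promoters from RefSeq. Alternatives were 2 other scalings, a pseudocount of 0.5, other filters, single columns, the highest transcript, other terms and leaving out libraries. Python 3.11.15, numpy 2.4.6, pandas 2.3.3 and matplotlib 3.10.9 made tables and figures.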

Additional observations from a re-analysis of the deposited data

How the results depend on the processing

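Over all alternatives, 0 genes were called in mdx sln+/- against mdx. The number of clock genes called moved from 7 to 4 in mdx and 0 in mdx sln+/- without both libraries with low Y-linked levels, to 3 and 4 among the plainly named libraries and to 4 in mdx sln+/- with name style as a term. With 1 library left out it was 5 to 7 in mdx and 3 to 7 in mdx sln+/-, lowest without WT 2 and mdx sln+/- 1. With both mdx groups against WT it was 4 without the low Y-linked libraries. Genes called in mdx against WT, 2080 in the model used, were 3797 without the term for the removed contrast, 126 without the low Y-linked libraries, 545 with only the 2 groups compared, 123 among plainly named libraries, 559 with name style as a term and 575 to 1819 with 1 library left out, lowest without WT 2. In mdx sln+/- against WT, from 2191, the same settings gave 3994, 39, 2021 (only the 2 groups), 336 (plainly named), 711 (name style) and 316 to 2408, lowest without mdx sln+/- 1. For both mdx groups, from 2711, they gave, apart from the one with only 2 groups, 4654, 153, 590, 930 and 886 to 2640. The cause of these changes was not tested; settings with fewer libraries have fewer degrees of freedom. Directions turned only in differences that were not called. For Cry1 in mdx, they were -0.03 without WT 1, -0.20 without mdx 3 (range with 1 library left out -0.20 to 0.24) and -0.07 with the replicate block. For Cry1 in mdx sln+/- they were 0.01 without WT 2, 0.04 without mdx sln+/- 1 (range -0.11 to 0.04), 0.03 among plainly named libraries and 0.15 with name style. Clock, taken by its highest transcript, was at -0.02 and -0.25 in the 2 groups, and Clock-201 in mdx at 0.04 without WT 1 and 0.03 without mdx 2, mdx sln+/- 2 or both (range -0.09 to 0.04), or with only the 2 groups compared. In mdx sln+/- against mdx, Per2 turned to 0.18 without mdx 3 and 0.13 without mdx sln+/- 3 or without both low Y-linked libraries (range -0.32 to 0.18), Cry1 to 0.11 without mdx 3 (-0.24 to 0.11), Nr1d1 to -0.18 without mdx 3 (-0.18 to 0.73) and -0.02 without mdx 2, mdx sln+/- 2 or both, Npas2 to 0.01 in these last 3 settings (-0.17 to 0.01) and 0.03 among plainly named libraries, and Ciart to 0.08 without mdx 1 (-0.34 to 0.08) and 0.05 among plainly named libraries. Numbers in the sample titles recur across groups and name no shared animal, litter or day; deviations of same-numbered libraries correlated at -0.31 to 0.18, leaving aside mdx 2 and mdx sln+/- 2, which the removed contrast ties together. With the replicate block 2398 genes and 7 clock genes were called in mdx against WT, 2361 and 7 in mdx sln+/- against WT and 0 and 0 in mdx sln+/- against mdx. Depth is unknown, so no limit for low levels such as those of Npas2 can be set from it.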

Other observations

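Within WT and mdx, some clock genes differed between certain libraries of a group in opposite directions; this was noticed after the values were seen, and no test was made. Nr1d1 was 6.76 in WT 1 and 6.05 in WT 2, and Ciart 4.17 and 3.46, while Cry1 was 3.06 and 3.19 and Per2 4.62 and 4.76. The step of Cry1 is near the difference of its r1 and r2 columns, 0.105 in WT 1 and 0.097 in WT 2. For Per2 these columns differed by 0.015 and 0.031. In mdx 1 and mdx 3, Nr1d1 was 6.40 and 4.81 and Ciart 2.11 and 1.38, while Cry1 was 2.87 and 3.49 and Per2 3.14 and 3.73. In the deposited values the library mdx 2 broke this pattern. It was below mdx 1 in Nr1d1 (5.27) and Ciart (1.55) and also in Per2 (3.05), and above it in Cry1 (3.11). The contrast removed before deposit ties mdx 2 and mdx sln+/- 2 to the other libraries without dystrophin. Their clock gene levels before that step are therefore not known. The 4 genes were picked for the pattern. In the mdx sln+/- libraries, number 3 was lowest in Nr1d1 (5.35) and Ciart (1.43) but also in Per2 (2.91). Cry2 and Clock varied little within groups, with SDs from 0.01 to 0.07. The labels give no hour of collection for any library.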
